A study of Mus musculus with 8 samples.

Results

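Skeletal muscle genes were followed across 8 arrays of mouse RNA. They comprised 39 genes of the sarcomere, the motor endplate, muscle metabolism and the myogenic transcription factors, listed by function, and every probe set whose annotation names 1 of them alone was taken with no filter on signal. All 39 genes were on the array, with 62 of the 45037 probe sets other than controls, against 18193 genes named in all. The arrays were whole-genome Affymetrix expression arrays hybridised with total RNA, 4 labelled Ctrl and 4 labelled Exp, numbered 1 to 4 in each group. The labels give no treatment, genotype, strain, age or sex for either group, and nothing says that the arrays came from separate animals, so the p-values speak of the spread among these 8 arrays alone, and that spread may be technical. One label field names the trigeminal ganglion, which holds the sensory neurons of the head, and another names brain and adrenal medulla.

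Skeletal muscle is built by fusion of myoblasts under the control of 4 related basic helix-loop-helix factors, which bind E-boxes in the DNA of muscle genes. Myosin heavy and light chains, actins and the troponins of the sarcomere exist as embryonic, slow and fast isoforms, and developing fibres first use embryonic and perinatal forms before the slow or fast adult set. The trigeminal ganglion itself holds neurons, glia, vessels and connective tissue. Skeletal muscle is not among its own cell types, although the chewing muscles develop close by. In RNA from a whole tissue, fewer cells of a type and less RNA per cell cannot be told apart.

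The deposited values were linear signals scaled to a trimmed mean of 2500 on each array, with medians between 478 and 553. Signals are given below as log2(signal + 16) after quantile normalization, called log2 signals, so that 1 unit is a doubling of signal + 16. Pearson correlations across probe sets ran from 0.95 to 0.96 between any 2 arrays. All 12 measured markers of sensory neurons lay above the 40th percentile of mean signal (8.45), as did 5 of 6 chromaffin and 3 of 8 brain markers. The summed sensory neuron signal lay between 18.83 and 18.88 (log2) on all 8 arrays. Levels of different probe sets cannot be set against each other on such arrays, and only the differences of a probe set between arrays are compared.

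Promoters of 5 members are shown, each with a match to CANNTG, the E-box pattern that the myogenic factors can bind. Their genes also mark the range of behaviour described below. By brightest probe set Myh3 and Mybph varied most between arrays and Ckm varied little. Of the 39 genes, 32 matched the RefSeq promoter table (GRCm38.p6). Each sequence is the 250 bases before the annotated start, 5′ to 3′ on the gene's strand, with every CANNTG in capitals.
Chrna1, chr2:73580339-73580588, minus strand: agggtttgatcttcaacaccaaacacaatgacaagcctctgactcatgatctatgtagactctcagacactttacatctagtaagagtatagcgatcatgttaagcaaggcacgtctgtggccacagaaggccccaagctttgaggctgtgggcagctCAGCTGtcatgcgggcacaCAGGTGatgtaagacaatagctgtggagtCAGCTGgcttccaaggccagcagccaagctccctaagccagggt
Myog, chr1:134289754-134290003, plus strand: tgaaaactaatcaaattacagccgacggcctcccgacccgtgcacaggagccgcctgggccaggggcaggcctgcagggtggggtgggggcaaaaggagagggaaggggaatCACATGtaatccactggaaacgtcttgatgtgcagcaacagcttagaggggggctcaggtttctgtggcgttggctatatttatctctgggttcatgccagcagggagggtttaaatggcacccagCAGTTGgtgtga
Myh3, chr11:67078050-67078299, plus strand: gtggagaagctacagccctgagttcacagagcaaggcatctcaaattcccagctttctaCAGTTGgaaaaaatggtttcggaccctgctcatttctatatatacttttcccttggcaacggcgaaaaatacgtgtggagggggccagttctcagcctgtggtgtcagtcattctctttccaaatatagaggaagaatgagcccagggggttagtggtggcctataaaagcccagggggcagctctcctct
Mybph, chr1:134193198-134193447, plus strand: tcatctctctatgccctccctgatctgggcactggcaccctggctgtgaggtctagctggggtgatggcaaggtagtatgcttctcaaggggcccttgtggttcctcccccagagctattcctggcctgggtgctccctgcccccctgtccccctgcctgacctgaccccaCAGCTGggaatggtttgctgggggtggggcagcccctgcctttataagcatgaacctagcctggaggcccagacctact
Ckm, chr7:19410844-19411093, plus strand: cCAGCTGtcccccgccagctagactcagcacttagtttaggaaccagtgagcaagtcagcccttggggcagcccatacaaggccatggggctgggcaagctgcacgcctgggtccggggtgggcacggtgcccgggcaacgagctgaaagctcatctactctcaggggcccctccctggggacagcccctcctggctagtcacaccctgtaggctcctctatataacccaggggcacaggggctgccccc

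The pattern CANNTG, which reads the same on both strands, occurred in 29 of the 35 promoter entries of these 32 genes (82.9%) and in 66.2% of all 32851 entries. Its form CAGCTG, a subset of those matches, occurred in 15 of the 35 (42.9%) against 13% of all entries, and in 14 of the 32 genes. Chrna1, the acetylcholine-binding subunit of the muscle receptor, held it at 92 and 44 bases before the start, with another E-box at 73. Mybph held 1 at 79 bases and Ckm 1 at 249 bases before the start. A MEF2 site on either strand was found in 4 of the 35 entries (11.4%, against 2.92% of all) and a CArG box, the site of serum response factor, in 2 (5.71% against 1.47%). The entry pairs of Tnni1 and of Myh7 overlap each other. These are letter matches, and the arrays do not measure binding.

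No member separated the Exp group from the Ctrl group in the test across all probe sets. With limma, 0 of the 62 muscle probe sets had an adjusted p under 0.05, as had 0 of all 45037 (0%), and the smallest adjusted p among the members was 0.997. At an unadjusted p under 0.05, 2 of the 62 were higher in Exp, against 2.45% of all probe sets, and 0 were lower, against 2.48%. The 4 Exp values lay above the 4 Ctrl values in 1 of the 62, against 1.24% of all, and below them in 0, against 1.29%. By each gene's brightest probe set, 36 of the 39 genes had a higher mean in Exp and 3 a lower one, with a median difference of 0.51 log2 units, where the median over all probe sets was -0.0037 and 49.3% were higher.

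The muscle genes varied more among the Exp arrays than most probe sets did. The median SD of the 39 genes was 0.97 in Exp and 0.38 in Ctrl, against 0.30 and 0.29 over all probe sets, and 34 of the 39 varied more in Exp, against 53.7% of all. Other lists shared this trait, since 10 of 12 epithelial and 9 of 11 connective tissue markers also varied more in Exp. The highest of the 8 signals was that of Exp 3 for 33 of the 39 genes (84.6%), where Exp 3 was highest for 14.6% of all probe sets. Exp 4 gave the lowest signal for 14 genes (35.9%, against 14.5% of all). In 20 of the 39 genes Exp 3 exceeded each of the other 7 arrays by over 1 log2 unit, a limit chosen after the values were seen that 0.389% of all probe sets met. Exp 2 lay above all 4 Ctrl arrays for 22 genes (56.4%, against 19.8% of all). The order Exp 3, Exp 2, Exp 1, Exp 4 from high to low held for 21 genes (53.8%, against 4.53% of all). Among the 12 epithelial markers the same order held for 6, and Exp 2 lay above all Ctrl arrays for 7. Whether the muscle genes differ in these counts from such lists was not tested. The order is that of the mean of these same 39 genes, and the arrays counted were picked by their values. The shares over all probe sets are therefore no independent support for it. These counts describe arrays, and no test was made of them, since genes read on the same arrays are not replicates.

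**Figure D1:**
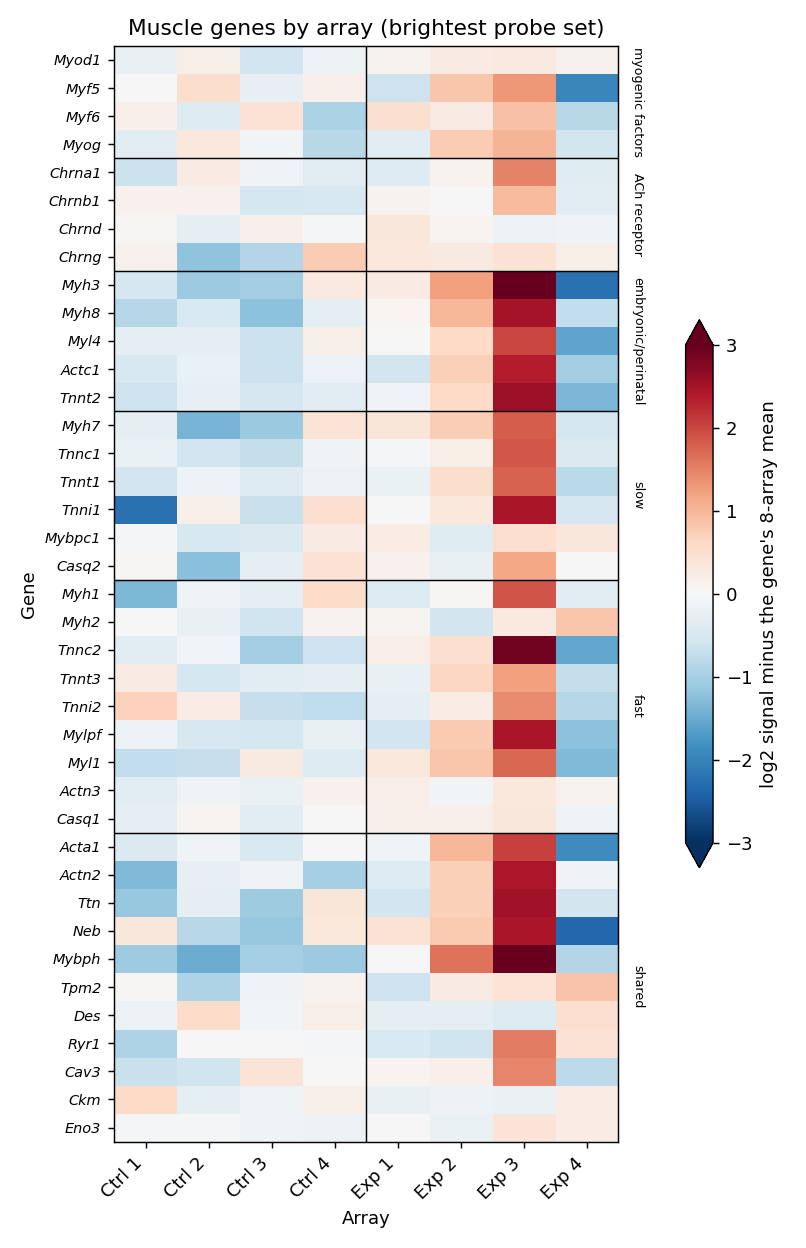
Log2 signal of each of the 39 muscle genes (rows, grouped by role) on each of the 8 arrays (columns), shown as the difference from the gene's own 8-array mean, with colours saturating at 3 units. The Exp 3 column is the highest in 33 rows, and Exp 4 is the lowest in 14.

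The mean of the 39 genes lay 1.47 log2 units above their 8-array mean in Exp 3 and 0.37 above it in Exp 2. It was -0.07 in Exp 1 and -0.57 in Exp 4. The Ctrl arrays lay between -0.44 in Ctrl 3 and -0.09 in Ctrl 4, so that the Exp group held both the highest and the lowest arrays. The 5 embryonic and perinatal genes spread farthest, with a class mean of 2.51 on Exp 3, 0.83 on Exp 2, -0.07 on Exp 1 and -1.39 on Exp 4, while the Ctrl arrays lay from -0.81 to -0.06. Slow isoforms reached 1.60 in Exp 3, fast isoforms 1.40 and the shared sarcomere and fibre genes 1.51. Acetylcholine receptor subunits reached 0.67 and the myogenic factors 0.88, each with Exp 3 as the highest array.

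**Figure D2:**
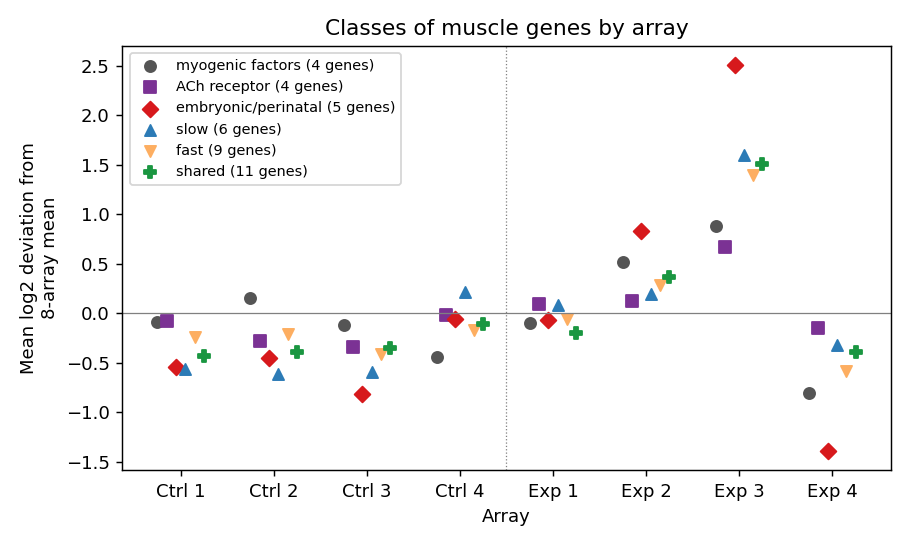
Mean log2 deviation from the 8-array mean (vertical axis) of 6 classes of muscle genes on each array (horizontal axis), with 1 symbol per class. Every class is highest in Exp 3, and the embryonic and perinatal class spans the widest range, from -1.39 in Exp 4 to 2.51 in Exp 3.

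The myogenic factors set the muscle programme in motion. Myod1, which commits cells to the lineage, read 8.78, 9.19, 8.45 and 8.87 in Ctrl 1 to 4 and 9.12, 9.26, 9.31 and 9.14 in Exp 1 to 4. The Exp arrays were close together and only Ctrl 2 reached into their range. The difference was 0.39 (SE 0.17, 95% confidence interval 0.0019 to 0.77, unadjusted p = 0.0491, adjusted p = 0.997, limma). Its other probe set, which carries the suffix for possible cross-hybridisation, gave the opposite sign, at -0.37 (SE 0.74), with Exp 3 the lowest array at 4.81. Myog, needed for the differentiation of myoblasts into fibres, read 9.50, 10.13, 9.73 and 8.96 in Ctrl and 9.47, 10.57, 10.82 and 9.26 in Exp. Exp 2 and Exp 3 lay above every Ctrl array, and Exp 1 and Exp 4 lay inside the Ctrl range (difference 0.45, SE 0.41).

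Myf5, the earliest of the factors in development, read 7.65, 8.16, 7.38 and 7.79 in Ctrl and 7.01, 8.47, 8.93 and 5.68 in Exp. It had a lower mean in Exp, by -0.22 (SE 0.67), and Exp 2 and Exp 3 again lay above all Ctrl arrays while Exp 1 and Exp 4 lay below all of them. Myf6, the factor of mature fibres, read 7.39, 6.83, 7.65 and 6.27 in Ctrl and 7.70, 7.46, 8.11 and 6.39 in Exp, with overlapping groups (0.38, SE 0.43). Both Myf5 and Myf6 had a mean signal under the 40th percentile. The high and low Exp arrays were thus 2.96-fold apart for Myog and 1.14-fold apart for Myod1, on the scale of signal + 16.

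Acetylcholine receptors of the endplate are pentamers in which the fetal gamma subunit is later replaced by epsilon. Chrna1, the alpha subunit, read 7.91, 8.80, 8.45 and 8.21 in Ctrl and 8.18, 8.67, 10.03 and 8.20 in Exp. Exp 3 alone stood out, and the other 3 Exp arrays lay inside the Ctrl range (0.43, SE 0.42). Chrnb1, the beta subunit, read 8.55, 8.54, 7.89 and 7.94 in Ctrl and 8.52, 8.41, 9.36 and 8.10 in Exp, with the same single high array (0.37, SE 0.30). Chrnd, the delta subunit, did not share it. It read 6.03, 5.70, 6.15 and 5.96 in Ctrl and 6.33, 6.08, 5.81 and 5.89 in Exp (0.07, SE 0.16), with Exp 3 lowest of the Exp arrays, at signals far under the 40th percentile. Chrng, the fetal gamma subunit, read 7.32, 5.98, 6.30 and 7.94 in Ctrl and 7.50, 7.46, 7.61 and 7.35 in Exp, where the Exp arrays were close together and the Ctrl arrays spread on both sides (0.60, SE 0.41). Of its dimmer probe sets, one read 8.83 in Exp 3 against 5.12 to 7.36 in the other 7 arrays (0.96, SE 0.67) and the other differed by -0.05 (SE 0.28).

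Embryonic and perinatal isoforms gave the clearest view of the pattern, and by brightest probe set all 5 genes kept the order Exp 3, Exp 2, Exp 1, Exp 4. Myh3, the embryonic myosin heavy chain, had log2 signals of 11.72, 11.15, 11.20 and 12.53 in Ctrl and 12.47, 13.47, 15.30 and 9.99 in Exp. As deposited, these were signals of 3426, 2210, 2331 and 5928 in Ctrl and 5731, 11250, 41548 and 1034 in Exp. Exp 4 lay below every Ctrl array and Exp 2 and Exp 3 above all of them, with 39.6-fold between the lowest and highest Exp array on the scale of signal + 16. The means were 11.6 ± 0.64 in Ctrl and 12.8 ± 2.21 in Exp (SD, n = 4 each), and the difference of 1.16 had an SE of 1.01 (adjusted p = 0.997, limma). Myh8, the perinatal myosin heavy chain, read 8.45, 8.86, 8.07 and 9.04 in Ctrl and 9.37, 10.30, 11.79 and 8.57 in Exp. Exp 1, 2 and 3 lay above every Ctrl array and Exp 4 inside their range (1.40, SE 0.64, unadjusted p = 0.0602, limma).

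Myl4, the embryonic and atrial essential light chain of myosin, read 9.82, 9.79, 9.43 and 10.25 in Ctrl and 10.08, 10.69, 12.10 and 8.50 in Exp (0.52, SE 0.67). Its dimmer probe set differed by -0.07 (SE 0.33), with Exp 3 at 8.73 and Ctrl 1 at 8.59. Actc1, the cardiac actin that fetal skeletal muscle also uses, read 10.12, 10.41, 9.95 and 10.43 in Ctrl and 10.05, 11.31, 12.96 and 9.57 in Exp (0.74, SE 0.68). Tnnt2, the cardiac troponin T, likewise used by embryonic skeletal fibres, read 8.83, 9.21, 8.95 and 9.12 in Ctrl and 9.34, 10.06, 12.06 and 8.07 in Exp (0.86, SE 0.74). The next brightest Tnnt2 set was also highest in Exp 3, at 11.26. In its dimmest set Exp 1 was highest, at 7.89, and Exp 3 read 7.03. By the brightest sets of Myl4, Actc1 and Tnnt2 the Ctrl arrays lay within 0.82 units of each other, with Exp 4 below all of them and Exp 2 and Exp 3 above. Heart muscle markers, 9 measured genes such as Myh6, Myl7 and Tnni3, had a mean deviation of -0.015 in Exp 3, an average of genes that went both ways. Myh6 lay at 1.04 there, Nppa at 0.61 and Pln at 0.57, while Tnni3 lay at -1.44 and Tbx5 at -1.26. Exp 3 was the highest array for 2 of the 9, and 0 of them stood over 1 unit above all other arrays there.

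**Figure D3:**
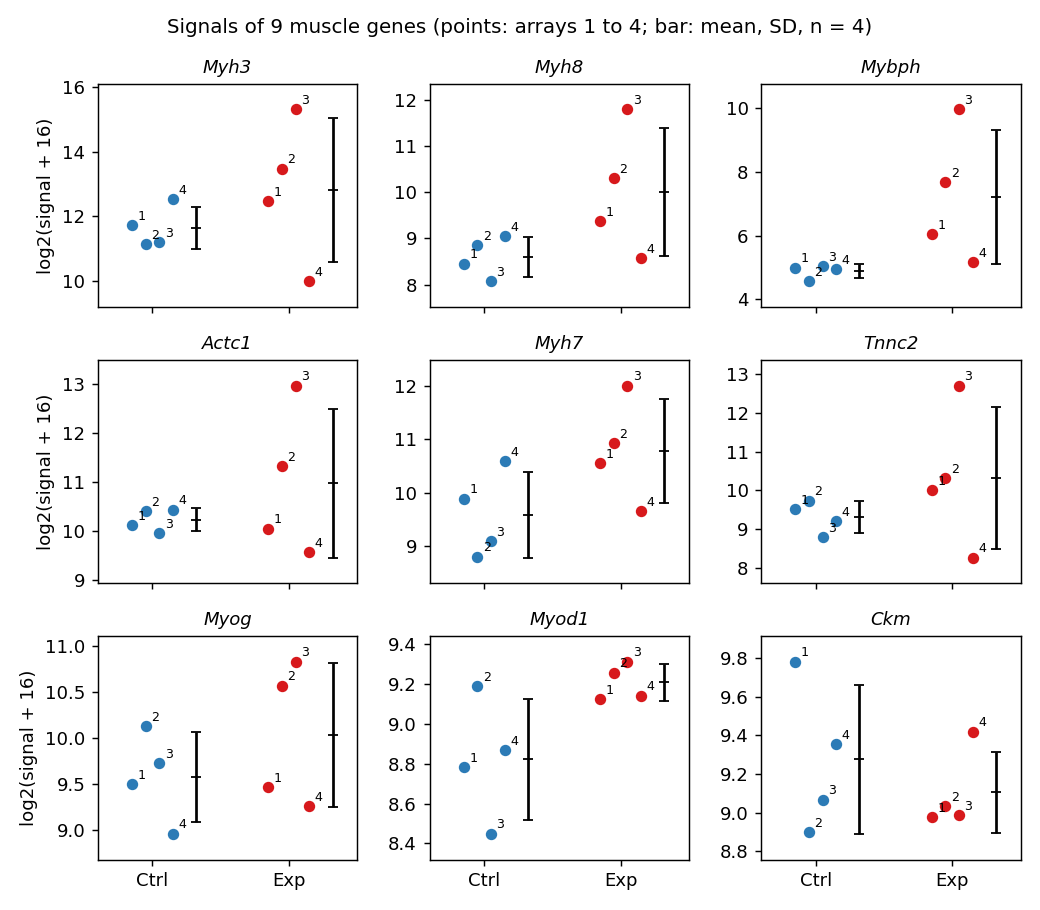
Log2 signals of 9 muscle genes in the 4 Ctrl (blue) and 4 Exp (red) arrays, with each point numbered by its array and black bars for the mean and SD (n = 4). Exp 3 and Exp 4 are the highest and lowest Exp arrays for Myh3, Actc1 and Tnnc2, whereas the Exp arrays of Myod1 and Ckm lie within 0.19 and 0.44 units of each other. The vertical axes differ between panels and do not start at 0.

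Slow fibre isoforms shared the high Exp 3 array, and all 6 had a higher mean in Exp, with differences from 0.36 to 1.20. Myh7, the slow and cardiac beta myosin heavy chain, read 9.88, 8.80, 9.08 and 10.59 in Ctrl and 10.55, 10.92, 12.01 and 9.66 in Exp. Ctrl 4 and Ctrl 1 reached into the Exp range (1.20, SE 0.56, unadjusted p = 0.0654, limma). The probe sets that name both Myh7 and Myh6 were left out by the rule. Tnni1, the slow troponin I that inhibits actomyosin at rest, read 6.51, 8.93, 8.10 and 9.26 in Ctrl and 8.74, 9.08, 11.22 and 8.25 in Exp (1.12, SE 0.79), with a low Ctrl 1 beside the high Exp 3. Tnnt1, the slow troponin T that ties the complex to tropomyosin, read 10.85, 11.27, 11.03 and 11.26 in Ctrl and 11.23, 11.96, 13.20 and 10.62 in Exp (0.65, SE 0.50).

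Among the other slow genes, Tnnc1, the calcium-binding troponin C of slow and cardiac muscle, had 11.30 in Exp 3 against 8.72 to 9.61 elsewhere (0.79, SE 0.47). Casq2, the calcium store protein of slow and cardiac muscle, had 10.88 in Exp 3 against 8.47 to 10.17 elsewhere. Mybpc1, the slow myosin-binding protein C, ranged over only 0.98 units on all 8 arrays by its brightest probe set, and its difference of 0.36 (SE 0.24) compares with 0.74 (SE 0.59) and 1.12 (SE 0.63) in its dimmer sets.

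Fast fibre isoforms differed in how far they followed Exp 3, which was the highest array for all of them but Myh2. Tnnc2, the fast troponin C, read 9.51, 9.73, 8.79 and 9.20 in Ctrl and 10.01, 10.31, 12.71 and 8.26 in Exp. Its Exp arrays spanned 21.9-fold on the scale of signal + 16 and enclosed the Ctrl range on both sides (1.01, SE 0.82). Mylpf, the fast regulatory light chain, read 9.39, 9.09, 9.04 and 9.35 in Ctrl and 8.99, 10.35, 12.01 and 8.34 in Exp (0.70, SE 0.72). Myh1, the fast type IIx myosin heavy chain, read 6.75, 7.97, 7.84 and 8.64 in Ctrl and 7.68, 8.14, 9.99 and 7.76 in Exp (0.60, SE 0.59). That probe set also carries the suffix for cross-hybridisation, and the myosin heavy chain genes are close in sequence, so the split of signal between them is uncertain. A second Myh1 set, read by probes for several transcripts of the gene, had the same high Exp 3 at 9.74 but a difference of -0.09 (SE 0.58). In the dimmest of the 3 sets Exp 3 was the lowest array, at 4.85, and Exp 2 the highest, at 6.81.

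By brightest probe set the remaining fast genes ranged widely. Myl1, the fast essential light chain, spanned 3.05 units over the 8 arrays, Tnni2, the fast troponin I, 2.29 and Tnnt3, the fast troponin T, 1.93, each with Exp 3 highest and Exp 4 lowest. In contrast Actn3, the actinin of fast Z-discs, spanned 0.64 units and Casq1, the fast calcium store protein, 0.65, although Exp 3 was the highest array for both. Myh2, the fast type IIa myosin, lay between 4.72 and 6.14 on all arrays with Exp 4 highest. Of the 9 fast genes, 9 had a higher mean in Exp, by 0.26 to 1.01, and 0 had an unadjusted p under 0.05.

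The shared class, of genes not listed here as developmental, slow or fast isoforms, held the largest single contrast. Mybph, myosin-binding protein H of the thick filament, read 4.99, 4.56, 5.05 and 4.95 in Ctrl and 6.05, 7.68, 9.96 and 5.17 in Exp. It was the member whose groups did not overlap, although Exp 4 exceeded the highest Ctrl array by little. The deposited signals were 6.51 to 16.9 in Ctrl and 50.6, 192, 943 and 20.6 in Exp, so the Ctrl values lay at the dim end of the array, where the pseudocount compresses differences. The difference was 2.33 (SE 0.93, 95% confidence interval 0.18 to 4.48, unadjusted p = 0.0372, adjusted p = 0.997, limma). Without Exp 3 it was 1.41 (SE 0.55).

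Neb, the nebulin that spans the thin filament, read 7.62, 6.45, 6.14 and 7.60 in Ctrl and 7.72, 8.07, 9.74 and 4.93 in Exp (0.66, SE 0.94). Acta1, the skeletal alpha actin, read 8.11, 8.39, 8.07 and 8.52 in Ctrl and 8.39, 9.53, 10.59 and 6.65 in Exp (0.51, SE 0.75). In both genes Exp 4 lay below every Ctrl array by over 1 unit, and Exp 2 and Exp 3 lay above them. Actn2, the actinin of all sarcomeres, had 11.02 on Exp 3 and 9.30 on Exp 2, while the other 6 arrays lay from 7.27 to 8.48 (1.32, SE 0.62, unadjusted p = 0.0650, limma).

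Ttn, the giant spring protein titin, is read by 6 probe sets. The brightest had 11.92 in Exp 3 and 10.12 in Exp 2 against 8.25 to 9.76 elsewhere (1.07, SE 0.72), and a set of similar brightness gave 1.03 (SE 0.74). The dimmest gave -1.09 (SE 0.79), with Exp 3 still its highest array at 8.40 and Exp 2 its lowest at 4.48. Another differed by 0.0023 (SE 0.26) with no high Exp 3. Ryr1, the calcium release channel, and Cav3, the muscle caveolin, stood 1.74 and 1.68 units above the mean of the other 7 arrays in Exp 3. The dimmer Ryr1 set was highest in Exp 1, at 8.25, with Exp 3 at 8.23.

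Other shared genes followed Exp 3 less or not at all. Ckm, the creatine kinase of muscle, lay between 8.90 and 9.78 on all arrays by its brightest probe set, with Ctrl 1 highest (-0.17, SE 0.21). Its dimmer set differed by 0.22 (SE 0.73). That set spanned 3.24 units, from 4.98 in Exp 1 to 8.22 in Exp 2, with Exp 3 at 8.02. Des, the intermediate filament desmin, had its lowest signal in Exp 3, at 7.59 (-0.24, SE 0.25), while its dimmer set differed by 0.46 (SE 0.34). Eno3, the muscle enolase, was highest in Exp 3, at 10.48, but spanned only 0.59 units. Tpm2, the beta tropomyosin that smooth muscle also makes, spanned 1.78 units with Exp 4 highest by its brightest set, while 2 of its 4 sets were highest in Exp 3, at 10.64 and 10.36. Across all classes 12 of the 39 genes had more than 1 probe set, and of their 23 further sets 7 differed in sign from the brightest and 2 by over 1 log2 unit.

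**Figure D4:**
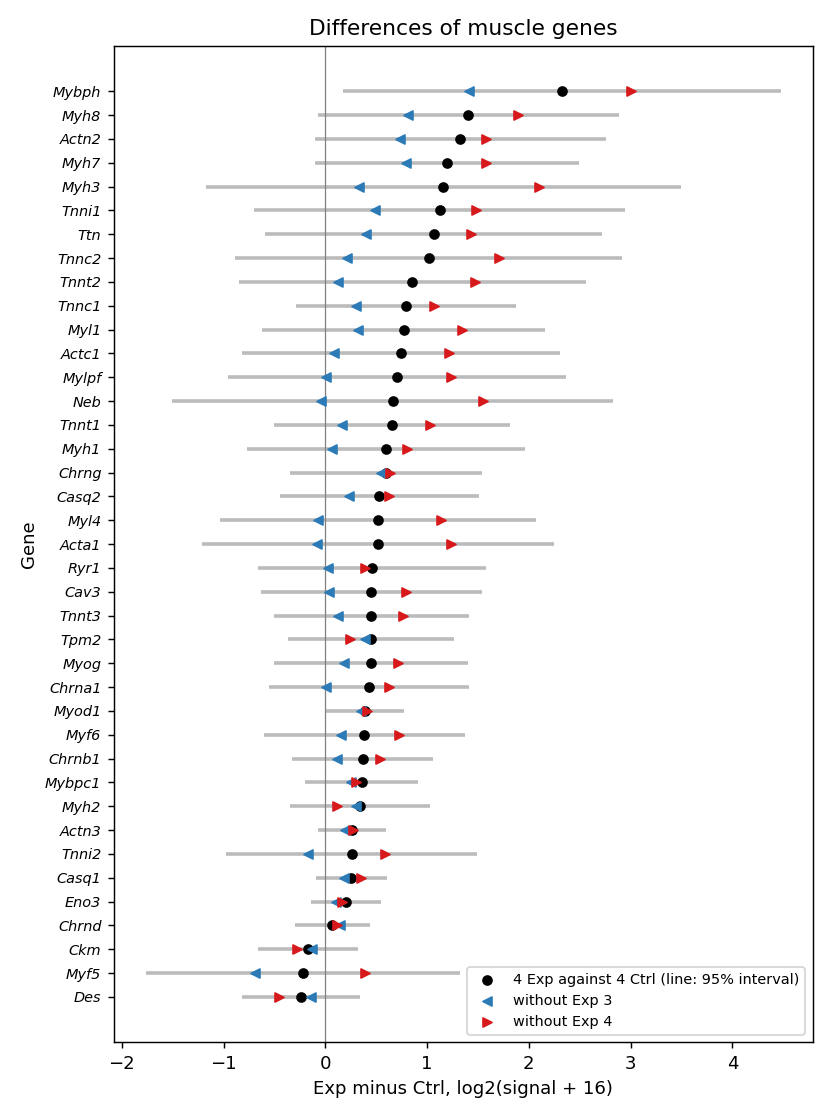
Difference between the Exp and Ctrl means (horizontal axis, log2) for each of the 39 genes, with the 95% confidence interval as a grey line and the values without Exp 3 (blue) and without Exp 4 (red). Without Exp 3 the median difference is 0.17, and without Exp 4 it is 0.76.

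The group difference of these genes rested on which Exp arrays were in it. The median difference was 0.51 with all arrays, 0.17 without Exp 3 and 0.76 without Exp 4. Without Exp 3 the number of genes with a higher mean in Exp was 32 of 39, and without both Exp 2 and Exp 3 it was 19 of 39, with a median of -0.017. Myl4, Acta1, Neb and Tnni2 turned to lower means in Exp without Exp 3, at -0.068, -0.085, -0.047 and -0.17, and Myf5 turned to a higher mean without Exp 4, at 0.39. Adjusted p-values stayed above 0.05 for each member in each of these fits. A filter on mean signal at the 40th percentile kept 24 of the 39 genes, and 5 of these (Chrna1, Tnni1, Myl1, Acta1 and Actn2) passed it although their Ctrl mean lay under it, so counts over filtered genes lean towards Exp.

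Other skeletal muscle genes, 71 measured of 81 listed from general knowledge of muscle, were followed in the same way. Exp 3 was the highest array for 39 of the 71 (against 14.6% of all probe sets), and in 8 it exceeded each other array by over 1 unit. Of the 71, 44 had a higher and 27 a lower mean in Exp, with a median of 0.12, and 0 passed limma's test after adjustment. At an unadjusted p under 0.05 there were 3 higher and 1 lower of the 71, a share near the 2.45% and 2.48% of all probe sets. Those of smallest p among the higher were Trim63, a ubiquitin ligase of the sarcomere (1.42, SE 0.39), Pgam2, the muscle phosphoglycerate mutase (1.53, SE 0.59), Lmod2, a leiomodin of thin filaments (1.31, SE 0.55), and Tmod4, a tropomodulin (0.62, SE 0.29). Among the lower they were Tcap, the titin cap (-0.40, SE 0.13), Chrne, the adult epsilon subunit of the receptor (-1.08, SE 0.52), Cacnb1, a calcium channel subunit (-0.87, SE 0.43), and Ankrd1 (-0.35, SE 0.18). The mean of the 71 lay at 0.57 on Exp 3 and 0.12 on Exp 2 and at -0.15 on both other Exp arrays, where Ctrl spanned -0.16 to -0.04.

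Markers of other cell types were read beside these values. Epithelial markers, 12 measured genes such as the keratins, moved with the muscle genes across the Exp arrays, with a mean deviation of 0.68 on Exp 3, 0.50 on Exp 2, -0.07 on Exp 1 and -0.47 on Exp 4 where Ctrl spanned -0.23 to -0.10. Exp 3 was the highest array for 6 of the 12. Without Krt15, which lay at 3.05 there, the other 11 had a mean of 0.47 on Exp 3. Krt14 and Grhl3 went the other way there, at -0.52 and -0.57. The summed log2 signal of all 12 epithelial markers ranged from 12.59 to 13.68 in Exp, with Exp 2 highest. In Ctrl it ranged from 12.92 to 13.17. Brain markers, 8 genes, had a mean deviation of 0.55 on Exp 3 against -0.29 to 0.17 on the other 7 arrays, with 3 of the 8 highest there. Without Olig2, which lay at 1.67 on Exp 3, the other 7 genes had a mean of 0.39 there. The summed log2 signal of the brain markers ranged from 13.46 to 13.54 in Exp and from 13.45 to 13.63 in Ctrl. Schwann cell and satellite glia markers, 10 genes, lay lowest in Exp 3, at -0.46. Without Egr2, which lay at -3.12 there, the other 9 had a mean of -0.17. Connective tissue and tendon markers, 11 genes, were highest in Exp 2, at 0.59, and lay at -0.13 in Exp 3. Cartilage and bone markers lay at 0.24 in Exp 2, and at 0.09 without Matn3. Smooth muscle markers, 9 genes, lay at 0.22 in Exp 3, but only 1 of them, Acta2, was highest there, and the other 8 had a mean of -0.037. Acta2, the alpha actin of smooth muscle that immature skeletal muscle also makes, singled out after its values were seen, read 13.95 in Exp 3 against 10.79 to 12.10 elsewhere. The mean of the 12 sensory neuron markers kept within -0.05 and 0.07 on all arrays, while single markers ran from -0.45 (Ntrk3 in Exp 1) to 0.42 (Nefh in Exp 3). The arrays give no detection calls, so no marker can be said to be absent. The part of these tissues in the muscle signal was not tested.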

How the data were processed

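The 8 arrays were assigned to Ctrl and Exp, with numbers 1 to 4, from the sample titles. The deposited values are linear probe set intensity values. The steps by which the authors made them are not given in the sources used here. Each array has the same mean without its lowest and highest 2% of probe sets, so differences are relative to the bulk of the array and a change in total RNA would not show. The values carry no detection calls, and the 4 arrays per group limit precision.

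Signals were taken as log2(signal + 16) and quantile normalized (limma 3.58.1, R 4.3.3), the 64 control probe sets were left out, and Exp was compared with Ctrl over all 45037 others by lmFit and eBayes in two-sided tests, adjusted by the Benjamini-Hochberg method at a 5% false discovery rate. No signal filter was used. The fit was tested on simulated data. Gene names came from the platform annotation, updated through RefSeq (GRCm38.p6). Of the probe sets, 34945 carried 1 gene name, 932 several and 9160 none. A gene is given by the probe set with the highest mean over the 8 arrays. The files name no genome build, and coordinates belong to the RefSeq promoter table only. The members and lists were chosen with earlier results of these data known. By rule, all 8 values are given for myogenic factors, receptor subunits, embryonic and perinatal genes and the 3 widest-ranging genes of each other class. Of the other muscle list, the 4 smallest p per direction are named. Alternatives were pseudocounts of 1 and 64, a filter, no quantile normalization, median centring, a replicate block, trend and robust options, array weights, gene means and left-out arrays. Added after the data were seen were the further probe sets and marker list means without their most extreme gene. The counts that single out Exp 2, Exp 3 or Exp 4, and the order of the Exp arrays, were not planned either. The fit without both Exp 2 and Exp 3 leaves out the arrays on which the members were highest. Figures were drawn with matplotlib 3.10.9.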

Additional observations from a re-analysis of the deposited data

Results flagged for a closer look

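Within each group of 4 arrays, each gene's brightest probe set was searched for an end value far from the others by Dixon's criterion at the 95% level. This was met in 3 of 78 groups, and chance gives about 3.9. The desmin gene Des read 8.52 in Exp 4 against 7.59 to 7.74 in the other Exp arrays. The creatine kinase gene Ckm read 9.42 in Exp 4 against 8.98 to 9.03. The calcium release channel gene Ryr1 read 7.17 in Ctrl 1 against 8.08 to 8.13 in the other Ctrl arrays. Exp 3 met this criterion for 0 of the 39 genes, and the other Exp arrays were themselves spread out for most of them, as the values in the report show.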

How the results depend on the processing

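In each alternative run, 0 muscle probe sets passed limma's adjusted threshold. Over all probe sets 1 was called with the filter, 1 with trend and robust options, and 0 to 2 over the fits without 1 array (2 without Exp 2), none of them a member. The filter left 23 of 24 members higher in Exp, since fewer were tested. Without both Exp 2 and Exp 3 the median was -0.017 and 19 genes were higher. In that fit means turned lower for Myog (-0.22), Chrna1 (-0.15), Myh3 (-0.42), Myl4 (-0.54), Actc1 (-0.42), Tnnt2 (-0.32), Tnnt1 (-0.18), Myh1 (-0.078), Tnnc2 (-0.18), Tnnt3 (-0.25), Tnni2 (-0.44), Mylpf (-0.56), Myl1 (-0.12), Acta1 (-0.76), Ttn (-0.029), Neb (-0.63) and Cav3 (-0.13). Over fits without 1 array, values ran from -0.035 to 0.14 (Chrnd), -0.068 to 1.14 (Myl4), -0.17 to 0.58 (Tnni2), -0.085 to 1.23 (Acta1), -0.047 to 1.55 (Neb) and -0.69 to 0.39 (Myf5). Averaging the probe sets of a gene turned Des (0.11) and Ckm (0.022). Further probe sets turned Myod1 (-0.37), Chrng (-0.050), Myl4 (-0.066), Myh1 (-0.095), Ttn (-1.09), Des (0.46) and Ckm (0.22). The cause was not tested. Of 710 single-gene values under alternatives, 677 kept their direction and stayed uncalled. The block, the filter and the trend and robust options leave each gene's difference as it is, so their values could not change direction. With the replicate block 0 members were called. The median of 0.51 could not change there, since both groups hold the same numbers. Deviations from the group means correlated at -0.04 to 0.01 between same-numbered arrays and at -0.03 to 0.06 between the other Ctrl and Exp arrays. No pairing by number shows in these values, but they cannot exclude a paired design. Dim signals limit Mybph, Chrnd, Cav3 and Myh2.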

Other observations

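Genes of muscle progenitors and of myoblast fusion, singled out from the list of other muscle genes after their values were seen, gave the following signals. Mymk, which encodes the fusion protein myomaker, read 8.85 in Exp 3, 7.83 in Ctrl 2 and 5.09 to 6.55 in the other 6 arrays, with a difference of 0.50 (SE 0.94). Pax7, the transcription factor of muscle stem cells that neural crest and midbrain cells also use, read 5.41 in Exp 4 against 8.14 to 8.99 in the other 7 arrays (-0.61, SE 0.75). Pax3, a factor of muscle progenitors and neural crest, lay between 9.97 and 10.99 with Ctrl 1 highest and Exp 3 at 10.18. Msc, a factor of the head muscles, read 11.62 in Exp 3 and 10.88 to 11.37 elsewhere. Tcf21, another factor of head muscle progenitors, went the other way, with Exp 3 its lowest array at 7.54 and Ctrl 3 its highest at 8.58. Lbx1, Tbx1 and Pitx3 were highest in Ctrl 4, Ctrl 2 and Exp 2. None of these passed limma's adjusted threshold.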
